A study of Mus musculus with 4 samples.

Results

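Ribosome-protected signal was examined for 40 genes of ribosome biogenesis and the nucleolus, chosen by symbol from the 55573 genes of the deposited table. They code for RNA polymerase I and its factors, for the proteins that modify and cut the precursor of ribosomal RNA, and for the factors that assemble the 40S and 60S subunits. The study asked whether eIF5A, the translation factor whose hypusine residue is derived from spermidine, sets the translation of all mRNAs or of some. Primary myoblasts were grown out of hind-limb muscle of mice aged 3 weeks and collected on day 2 of proliferation, in medium with FGF. Each group, WT and eIF5A-KO by its label, had 2 libraries. The knockout mice carried Pax7-CreERT2/+ and floxed eIF5A (f/f) and had received tamoxifen. The controls were WT littermates, and their genotype is open here, because the labels say only WT and the study describes WT control mice both as Pax7-CreERT2/+ and as Pax7+/+ with floxed eIF5A. Cre was driven from Pax7, a gene of muscle stem cells, and recombination in these cultures was not measured in the values used here. Ribosomes were held on the mRNA with cycloheximide, and the fragments they protected from RNase I were sequenced. The sample titles call the assay Polysome-Seq, but the extraction text describes such protected fragments, and the values are taken as ribosome profiling. The study speaks of duplicate Ribo-seq experiments, without saying whether the duplicates came from separate cultures or animals, so a p-value measures the spread between these libraries, which may be technical.

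A ribosome is made in the nucleolus, where RNA polymerase I copies the ribosomal RNA genes into a long precursor. Small nucleolar ribonucleoproteins guide the methylation (box C/D) and the conversion of uridine to pseudouridine (box H/ACA) of this precursor, and large protein complexes fold and cut it while ribosomal proteins join. The output of this pathway follows growth and proliferation, and the transcription factor Myc, which binds the E-box CACGTG, is a well known activator of its genes. Consecutive proline codons slow the ribosome, and eIF5A is known to relieve that pause.

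The 40 genes carry sequences that bear on both of these points, and the stretches of the genes described below are shown because a reader can find the E-box and the proline codons in them. The hexamer CACGTG, which reads the same on both strands, was searched in windows from 250 bases before to 50 bases after the annotated starts (RefSeq, GRCm38.p6). Of the 40 genes, 34 had a window, and 7 of these (20.6%) held the hexamer, namely Utp4, Wdr43, Utp20, Tsr1, Ltv1, Pes1 and Nop2. The hexamer stood in the windows of 19.2% of 73 other ribosome biogenesis genes, 9.18% of 16571 protein-coding genes and 7.15% of all 32851 windows of this length. The following stretches are 5′ to 3′ on the strand of the gene, with the hexamer in capitals, at chr6:125131811-125131840 (plus strand) for Nop2, chr11:3963965-3963994 (plus) for Pes1, chr11:74898092-74898121 (plus) for Tsr1 and chr10:88826765-88826789 (minus) for Utp20. A match is a run of letters and no evidence of binding.
Nop2: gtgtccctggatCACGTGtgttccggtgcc
Pes1: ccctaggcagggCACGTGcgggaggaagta
Tsr1: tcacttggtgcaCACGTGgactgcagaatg
Utp20: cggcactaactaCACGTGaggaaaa
The hexamer began 60 bases before the start of Nop2 and at bases 3, 25 and 38 of the transcripts of Pes1, Tsr1 and Utp20.

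A run of 3 consecutive proline codons was found in the longest coding sequence (GENCODE M21, GRCm38) of 9 of the 40 genes (22.5%), against 4314 of 21625 protein-coding genes (19.9%). The 9 genes were Polr1b, Ubtf, Fbl, Nolc1, Utp4, Utp20, Bop1, Nop2 and Ncl, and no gene among the 40 had a longer run. The coding stretches of 6 of them are shown 5′ to 3′ in frame, with the proline codons in capitals. The run covers codons 19 to 21 of Ncl (chromosome 1), 775 to 777 of Nop2 (chromosome 6), 302 to 304 of Nolc1 (chromosome 19), 300 to 302 of Ubtf (chromosome 11), 321 to 323 of Fbl (chromosome 7) and 302 to 304 of Bop1 (chromosome 15).
Ncl: aaaatggctCCTCCTCCAaaggaggtg
Nop2: tccaccaggCCCCCACCAgcaaaaagg
Nolc1: agttcagttCCACCACCCtctgttcct
Ubtf: cctaccaagCCGCCTCCGaacagctac
Fbl: gtgtacaggCCACCTCCCaaggtgaag
Bop1: tcttacaacCCACCTCCCgagtacctg
The run lies near the start of the coding sequence in Ncl (707 codons) and within its last part in Nop2 (794 codons) and Fbl (327 codons).

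The values were RPKM, reads scaled by the length of the gene and by a library size that the authors set. Whole reads were recovered from them, between 642429 and 704006 a library, of which 33.9% to 41.5% fell on protein-coding genes in the WT libraries and 59.2% to 65.4% in the libraries labelled eIF5A-KO. The library sizes implied by the RPKM were less even, 602863 and 471136 in WT libraries 1 and 2 and 906990 and 807705 in eIF5A-KO libraries 1 and 2. Eif5a, the gene to be deleted, had 34.9 and 65.2 RPKM in WT libraries 1 and 2 and 60.3 and 59.4 RPKM in the libraries labelled eIF5A-KO. Its log2 fold change was 0.32 (SE 0.48, 95% interval -0.87 to 1.51, adjusted p = 0.839 in limma), so the signal on Eif5a did not fall under the knockout label, and each direction given here is that of the labelled libraries. The 10 myoblast markers summed to 349 and 203 RPKM in the WT libraries and to 102 and 123 RPKM in those labelled eIF5A-KO, with a median log2 fold change of -1.27 and 0 of the 9 tested above 0. Myod1, the myoblast factor, had 139.9 and 117 RPKM in WT and 48.6 and 79.8 RPKM in the libraries labelled eIF5A-KO, lower there without overlap (log2 fold change -1.03, SE 0.48, adjusted p = 0.676 in limma). Markers of other cells were present as well, with sums of 297 to 794 RPKM for 10 fibroblast markers (7 of 10 above 0, median log2 fold change 0.45), 183 to 219.5 RPKM for 6 endothelial markers (4 of 6 above 0) and at most 38.5 RPKM for 6 immune markers. Of these, C1qa was at 0 in all 4 libraries and Ptprc reached 0.453 RPKM at most, while Cd68 had 14.8 to 23.6 RPKM and Lyz2 had 4.19 to 12.9 RPKM. The log2 fold changes of the 3 tested immune markers were 1.33 for Adgre1, -1.16 for Lyz2 and -0.36 for Cd68. In such bulk libraries, fewer cells of a type, less RNA per cell and fewer ribosomes on each mRNA cannot be told apart. The study reported Myod lower in its Ribo-seq with no difference in Myod mRNA, and RNA abundance was not used here. The part of cell composition in the values below was not tested.

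All 40 genes passed the minimum of a mean of 1 RPKM and were tested with 11363 genes in all. Because 1 RPKM was added before the log2, the fold changes of weakly read genes come out too small. Of the 40 genes, 33 had a log2 fold change above 0 in the libraries labelled eIF5A-KO, where 50.0% of all tested genes did, and 7 were below. Their median log2 fold change was 0.31, with quartiles of 0.07 and 0.77, against a median of 0.00 over all tested genes and 0.05 over protein-coding genes. None passed an adjusted p of 0.05 in limma in either direction, with adjusted p between 0.629 and 0.999, where 0.00880% of all tested genes were higher and 0.0968% lower. At an unadjusted p under 0.05, 3 of the 40 were higher (Dkc1, Mrto4 and Nop2), next to 2.86% of all tested genes, and 0 were lower, next to 4.46%. With limma-voom on the recovered reads, 6 of the 40 were higher at an unadjusted p under 0.05 (Dkc1, Nip7, Nop2, Nop58, Wdr12 and Wdr75), against 3.48% of 9179 genes in that fit, and Mrto4 was not among them. Both libraries labelled eIF5A-KO were above both WT libraries for 13 of the 40 genes (32.5%), and 20.1% of all tested genes showed this. The opposite order was seen for 0 of the 40 and for 20.3% of all tested genes.

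**Figure D1:**
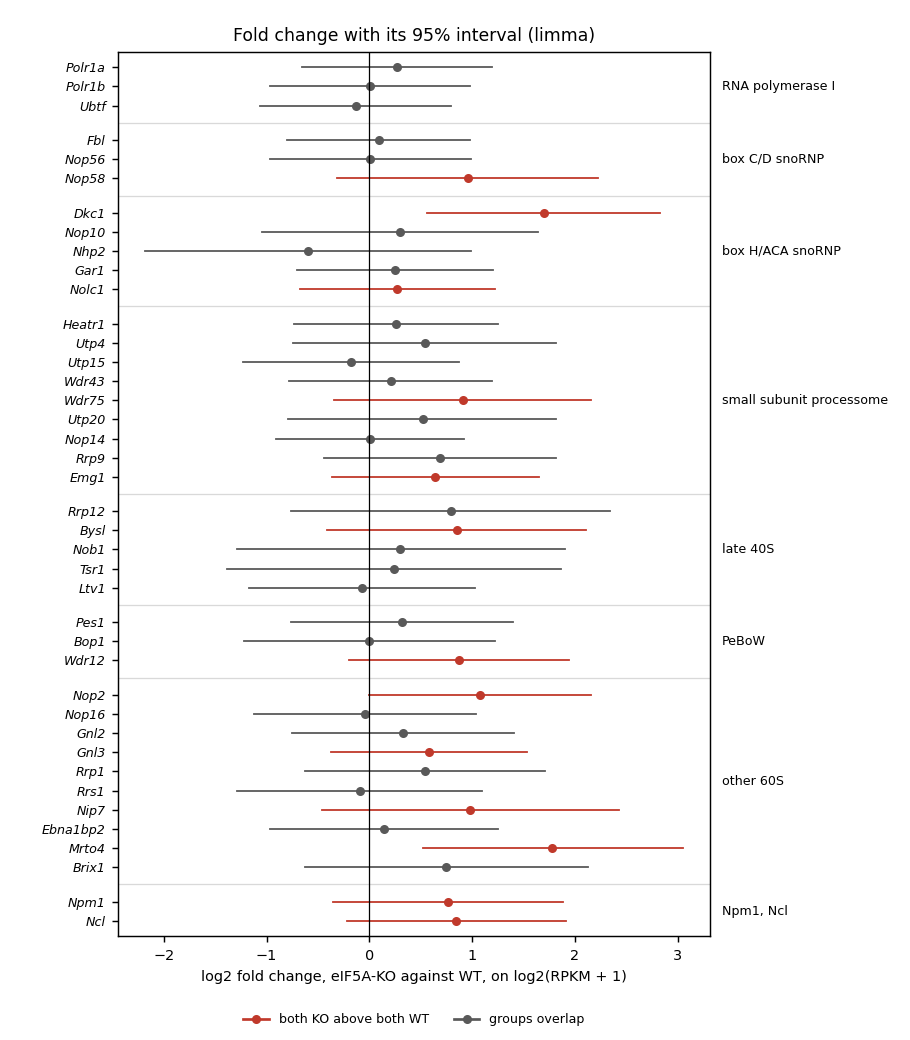
The log2 fold change of each of the 40 genes on the log2(RPKM + 1) scale (point) with its 95% interval from limma (line), eIF5A-KO against WT (2 libraries each), grouped by role. Most points lie above 0 with intervals that cross it, and red marks the 13 genes with both libraries labelled eIF5A-KO above both WT libraries.

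The distance between the groups rested largely on WT library 1. It was the lowest of the 4 libraries for 33 of the 40 genes, against 28.0% of all tested genes and 31.2% of protein-coding genes. WT library 2 exceeded WT library 1 in 36 of the 40 (90.0%), with a median log2 difference of 0.68, where the median over all tested genes was 0.00. Set against WT library 1, the median log2 difference of the 40 genes was 0.68 in eIF5A-KO library 1 (36 above) and 0.83 in eIF5A-KO library 2 (38 above). Set against WT library 2, the medians were 0.00 (20 above) and 0.05 (22 above). Without WT library 1 the median log2 fold change of the 40 was 0.09, with 22 above 0 (49.5% of all tested genes) and 1 higher at an unadjusted p under 0.05 in limma (3.93% of all tested genes). Without WT library 2 the median was 0.68, with 39 above 0 (49.1% of all) and 10 higher at an unadjusted p (7.12% of all). Among the genes without overlap, the difference mostly changed with the WT library left out. The log2 fold change without WT library 1 and without WT library 2 was 0.31 and 1.51 for Wdr75, 0.25 and 1.71 for Nip7, 0.33 and 1.59 for Nop58, 0.24 and 1.45 for Bysl, 0.50 and 1.03 for Npm1, 0.54 and 1.15 for Ncl, 0.37 and 0.78 for Gnl3, and 0.62 and 1.11 for Wdr12. It was 0.22 and 0.33 for Nolc1, and Emg1 went the other way, with 0.82 and 0.47.

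**Figure D2:**
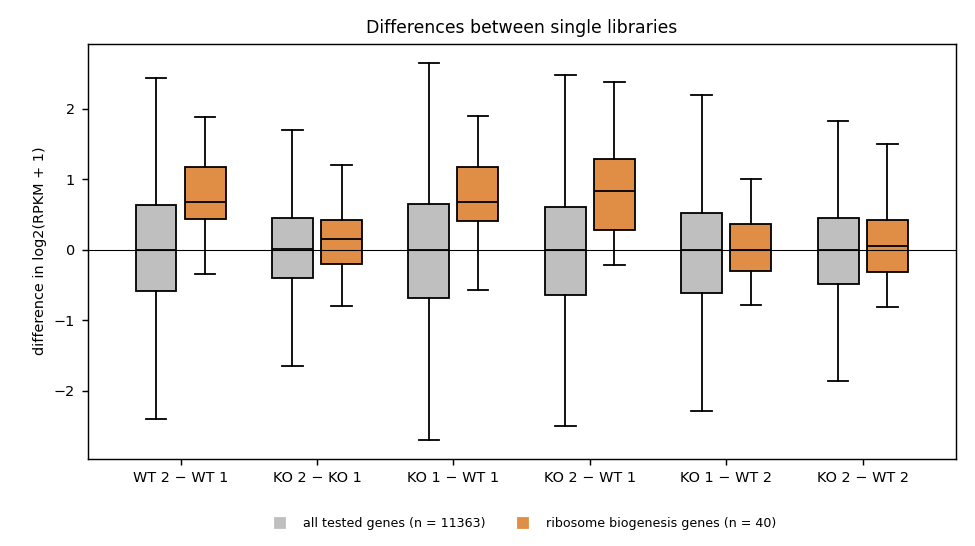
Differences in log2(RPKM + 1) between single libraries for the 40 ribosome biogenesis genes (orange) and all 11363 tested genes (grey), where boxes span the middle of the values, centre lines are medians and whiskers reach the farthest value within 1.5 box lengths. The orange boxes lie above 0 in the 3 differences taken from WT library 1 and around 0 in the 2 taken from WT library 2.

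The share of protein-coding reads that fell on the 40 genes showed the same order. It was 0.342% in WT library 1 (921 reads, 95% Wilson interval 0.321 to 0.365), 0.551% in WT library 2 (1200 reads, 0.521 to 0.583), 0.554% in eIF5A-KO library 1 (2551 reads, 0.533 to 0.576) and 0.609% in eIF5A-KO library 2 (2346 reads, 0.585 to 0.634). The interval of WT library 1 lay below the other 3, and that of eIF5A-KO library 2 lay above the other 3. Those of WT library 2 and eIF5A-KO library 1 overlapped. PCR copies are not separate molecules, and the intervals hold counting error alone. As a share of all reads, WT libraries 1 and 2 had 0.142% and 0.187% and eIF5A-KO libraries 1 and 2 had 0.362% and 0.361%, which moves with the larger part of coding reads there. When each library was scaled to the same RPKM sum, all 40 genes were above 0 (83.8% of the genes tested so) and 39 were higher without overlap (48.5%), while the median of all tested genes was 0.84. When the sum was taken over protein-coding genes only, the median of the 40 was lower than in the main fit but above 0, at 0.18. That of all tested genes was -0.12. Of the 40, 29 were above 0 (43.6% of the genes tested so) and 10 were higher without overlap (16.2%). Dkc1 and Mrto4, but not Nop2, were higher at an unadjusted p under 0.05 in limma (1.93%).

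The levels of 16 markers of proliferation were set beside these genes. All 16 had a log2 fold change above 0, with a median of 0.96, and 15 were lowest in WT library 1. None passed an adjusted p of 0.05 in limma (lowest 0.660), 2 were higher at an unadjusted p under 0.05, and 12 were higher without overlap, against the 2.86% and 20.1% of all tested genes given above. Mki67, the marker not lowest in WT library 1, had 9.23 and 4.22 RPKM in WT and 11.4 and 3.81 RPKM in the libraries labelled eIF5A-KO (log2 fold change 0.08). Its groups overlapped, as did those of Pcna, Mcm2 and Rrm2. The summed signal of the 16 markers was 78.0 and 168 RPKM in WT libraries 1 and 2 and 221 and 197 RPKM in the libraries labelled eIF5A-KO. WT library 1 also held the highest sum of myoblast markers, and in it Myog, a factor of differentiation, had 91.0 RPKM against 4.26 RPKM in WT library 2. Myc had 53.7, 85.9, 64.9 and 76.6 RPKM in WT libraries 1 and 2 and eIF5A-KO libraries 1 and 2, lowest in WT library 1, with a log2 fold change of 0.05. The part of proliferation and differentiation in the signal of the 40 genes was not tested.

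**Figure D3:**
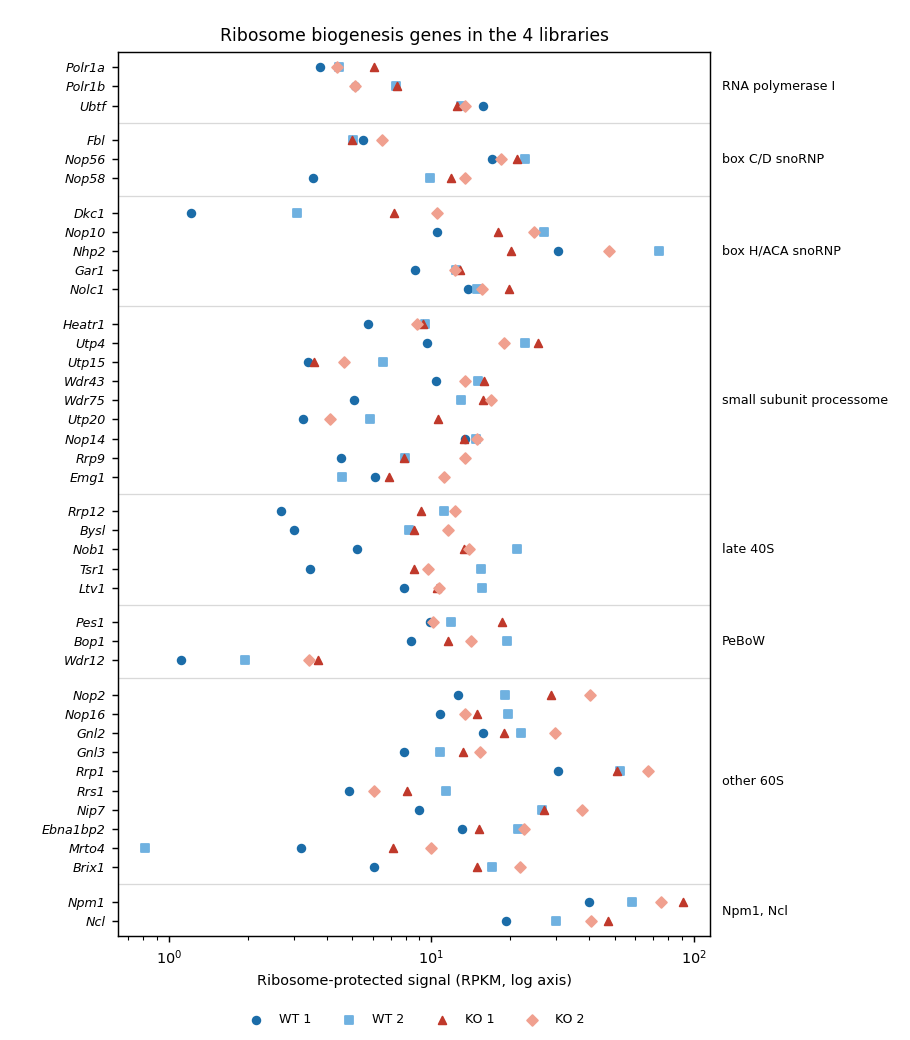
RPKM (log axis) of the 40 genes in the 4 libraries, grouped by role, with blue symbols for WT and red symbols for libraries labelled eIF5A-KO. The dark blue circle of WT library 1 is the lowest symbol in 33 rows, and the values run from 0.813 RPKM (Mrto4, WT library 2) to 91.0 RPKM (Npm1, eIF5A-KO library 1).

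The nucleolar chaperone Npm1 and nucleolin (Ncl) had the most reads of the 40. Npm1 (chr11:33152287-33163206, minus strand) codes for nucleophosmin, which helps to shape the granular part of the nucleolus and to carry subunits out of it. Its signal was 39.8 and 58.1 RPKM in WT and 91.0 and 74.8 RPKM in the libraries labelled eIF5A-KO, without overlap. The log2 fold change was 0.77 (SE 0.45, 95% interval -0.35 to 1.88, adjusted p = 0.697 in limma), so the difference did not exceed the spread in this test. Of the 30-base stretches of its coding sequence, 86.7% also occur in other genes, and 13 annotated pseudogene copies in the table held 8 reads in all against 518 on Npm1. Ncl (chr1:86344719-86359400, minus strand) codes for an RNA-binding protein of the precursor and carries one of the proline runs shown above. It had 19.2 and 29.8 RPKM in WT and 47.0 and 40.8 RPKM in the libraries labelled eIF5A-KO, a log2 fold change of 0.84 (SE 0.43, 95% interval -0.22 to 1.91, adjusted p = 0.680 in limma). With 1031 reads over the 4 libraries it was the most deeply read of the 40, and its groups did not overlap.

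RNA polymerase I had the median log2 fold change closest to 0 of the 8 roles, 0.01. Polr1a and Polr1b code for its largest subunits, and Ubtf for the factor that opens the ribosomal RNA genes to it. The log2 fold changes of these 3 genes were 0.27, 0.01 and -0.13, and their groups overlapped in each case. Polr1a had 3.77 and 4.47 RPKM in WT and 6.04 and 4.38 RPKM in the libraries labelled eIF5A-KO. Polr1b had 5.14, 7.31, 7.41 and 5.12 RPKM in the same order, and its lowest library was one labelled eIF5A-KO. Ubtf had 15.7, 13.0, 12.5 and 13.4 RPKM, with WT library 1 the highest. The summed signal of the role lay between 22.9 and 25.9 RPKM in all 4 libraries, the only role of the 8 whose sum in WT library 1 was not the lowest. Of 13 other RNA polymerase I genes, 7 were above 0, with a median of 0.03.

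The core proteins of the box C/D particle had log2 fold changes from 0.01 to 0.96 with overlapping 95% intervals, and the differences between them were not tested. Fbl (fibrillarin) is the enzyme that methylates RNA, and Nop56 and Nop58 are the paired scaffold proteins that hold it. Fbl had 5.52 and 5.04 RPKM in WT and 4.98 and 6.47 RPKM in the libraries labelled eIF5A-KO, and its groups overlapped (log2 fold change 0.09). Nop56 had 17.0, 22.8, 21.2 and 18.4 RPKM, and it overlapped too (log2 fold change 0.01). Nop58 (chr1:59684971-59719044, plus strand) had 3.55 and 9.86 RPKM in WT and 11.9 and 13.5 RPKM in the libraries labelled eIF5A-KO, a log2 fold change of 0.96 (SE 0.51, 95% interval -0.31 to 2.22, adjusted p = 0.688 in limma). The Nop58 groups did not overlap, but the larger step was the one between the 2 WT libraries. Copies bear on Fbl, since 91.2% of its 30-base coding stretches occur in other genes as well, and 4 of its pseudogene copies in the table held 7 reads in all against 65 on Fbl.

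Among the box H/ACA proteins, Dkc1 and Nhp2 lay at opposite ends. Dkc1 (chrX:75095854-75109777, plus strand) codes for dyskerin, the enzyme that makes pseudouridine and that also binds telomerase RNA. It had 1.21 and 3.09 RPKM in WT and 7.22 and 10.5 RPKM in the libraries labelled eIF5A-KO, from 3, 6, 27 and 35 reads. The groups did not overlap, and the log2 fold change was 1.70 (SE 0.46, 95% interval 0.56 to 2.83, adjusted p = 0.629 in limma). Nhp2, a partner of dyskerin in the same particle, had 30.4 and 74.1 RPKM in WT and 20.2 and 47.5 RPKM in the libraries labelled eIF5A-KO. It had the lowest log2 fold change of the 40, -0.60 (SE 0.64, 95% interval -2.18 to 0.99, adjusted p = 0.768 in limma), and the largest difference between the 2 libraries labelled eIF5A-KO, 1.19 on the log2 scale, so the groups overlapped. Nop10, the small core protein of this particle, had 10.5, 26.8, 17.9 and 24.6 RPKM and overlapped (log2 fold change 0.30). Nolc1, the chaperone of these particles in the nucleolus, had 13.8 and 15.0 RPKM in WT and 19.7 and 15.6 RPKM in the libraries labelled eIF5A-KO. Its log2 fold change was 0.27, without overlap, but the margin between the groups was smaller than the gap between the 2 libraries labelled eIF5A-KO. Gar1, the remaining core protein, overlapped at 8.71 to 12.9 RPKM.

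The small subunit processome, the first large particle on the precursor, had 9 genes, of which 8 were above 0 with a median log2 fold change of 0.52. Heatr1, a scaffold of the particle that is also tied to RNA polymerase I transcription, had 5.72 and 9.49 RPKM in WT and 9.30 and 8.86 RPKM in the libraries labelled eIF5A-KO, and only WT library 1 stood apart. Utp20, a very long scaffold protein, had 3.25, 5.83, 10.6 and 4.13 RPKM, where eIF5A-KO library 1 alone was high and the groups overlapped (log2 fold change 0.52). Wdr75 and Emg1 were the 2 of these 9 genes without overlap, where 20.1% of all tested genes were higher without overlap. Wdr75, a WD-repeat subunit, had 5.08 and 13.0 RPKM in WT and 15.8 and 16.9 RPKM in the libraries labelled eIF5A-KO (log2 fold change 0.91, adjusted p = 0.695 in limma). Emg1, a methyltransferase of 18S ribosomal RNA, had 6.09, 4.58, 6.90 and 11.2 RPKM (log2 fold change 0.64, adjusted p = 0.697). For Emg1 the lowest value was in WT library 2. The other 5 genes, Utp4, Utp15, Wdr43, Nop14 and Rrp9, had 3.40 to 25.6 RPKM and overlapped, and Utp15 alone in this role was below 0 (log2 fold change -0.18).

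The factors of late 40S assembly showed the widest gap between the 2 WT libraries. The median log2 difference of WT library 2 over WT library 1 was 1.74 for these 5 genes, and WT library 1 was the lowest in all 5. That library held 7 reads on Rrp12, 7 on Bysl, 8 on Tsr1, 11 on Nob1 and 11 on Ltv1. Nob1, the nuclease that makes the final cut of 18S ribosomal RNA, had 5.23 and 21.3 RPKM in WT and 13.3 and 13.9 RPKM in the libraries labelled eIF5A-KO, so both of these lay between the WT values (log2 fold change 0.30). Tsr1, a factor that holds the 40S precursor in an inactive state, had 3.46 and 15.5 RPKM in WT and 8.62 and 9.68 RPKM in the libraries labelled eIF5A-KO, with the same order (log2 fold change 0.24). Its WT difference of 1.89 on the log2 scale was the largest of the 40, from 8 and 28 reads. Bysl (bystin) was the one of these 5 genes without overlap, where 20.1% of all tested genes were higher without overlap. It had 3.01, 8.26, 8.58 and 11.6 RPKM (log2 fold change 0.85, adjusted p = 0.697 in limma), and WT library 2 was within 1 RPKM of eIF5A-KO library 1. Rrp12 and Ltv1 had 2.68 to 15.6 RPKM and overlapped.

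Pes1, Bop1 and Wdr12 form the PeBoW complex, which is needed to process the precursor of the 60S subunit. Pes1 had 9.87 and 11.9 RPKM in WT and 18.6 and 10.2 RPKM in the libraries labelled eIF5A-KO, with eIF5A-KO library 1 alone high (log2 fold change 0.32). Bop1 had 8.41, 19.4, 11.6 and 14.2 RPKM, with the libraries labelled eIF5A-KO between those of WT (log2 fold change -0.00). Wdr12 (chr1:60069785-60098645, minus strand) had 1.11 and 1.95 RPKM in WT and 3.69 and 3.42 RPKM in the libraries labelled eIF5A-KO, from 8, 11, 40 and 33 reads. The Wdr12 groups did not overlap, and its log2 fold change was 0.87 (SE 0.43, 95% interval -0.20 to 1.94, adjusted p = 0.676 in limma). Its coding sequence makes up 10.6% of the length by which its reads were scaled, the smallest part among the 40, and RPKM spreads reads on coding sequence over that whole length. The 3 subunits of the complex thus had different patterns over the 4 libraries, and the differences between subunits were not tested.

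Of the other 60S factors, 8 of 10 were above 0, with a median log2 fold change of 0.56. Of the 10, 4 were higher without overlap (Nop2, Gnl3, Nip7 and Mrto4), against 20.1% of all tested genes. Nop2 (chr6:125131909-125144753, plus strand), a methyltransferase of 28S ribosomal RNA and a marker of proliferating nucleoli, carries both the E-box and a proline run shown above. It had 12.6 and 19.1 RPKM in WT and 28.6 and 40.2 RPKM in the libraries labelled eIF5A-KO, and the log2 fold change was 1.08 (SE 0.44, 95% interval 0.00 to 2.16, adjusted p = 0.672 in limma). Mrto4 (chr4:139347435-139352576, minus strand), which holds the place of the ribosomal stalk on the 60S precursor, had 3.18 and 0.813 RPKM in WT and 7.18 and 9.96 RPKM in the libraries labelled eIF5A-KO. Its log2 fold change was the highest of the 40, 1.78 (SE 0.51, 95% interval 0.52 to 3.05, adjusted p = 0.650 in limma), from 5, 1, 17 and 21 reads. Mrto4 was lowest in WT library 2, unlike most of the 40, and kept a log2 fold change of 2.38 without WT library 1 and 1.18 without WT library 2. Dkc1 had 1.25 and 2.14 and Nop2 0.79 and 1.36 under the same omissions, and among these 6 fits limma's unadjusted p was under 0.05 for Mrto4 without WT library 1 and for Dkc1 without WT library 2.

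Gnl3 (nucleostemin), a GTP-binding protein abundant in stem cells, had 7.88 and 10.8 RPKM in WT and 13.2 and 15.4 RPKM in the libraries labelled eIF5A-KO, without overlap (log2 fold change 0.58, adjusted p = 0.697 in limma). Nip7, a factor of 60S assembly, had 9.01, 26.4, 26.8 and 37.6 RPKM, where WT library 2 nearly reached eIF5A-KO library 1 (log2 fold change 0.98, adjusted p = 0.697). Rrs1, which helps to bring 5S ribosomal RNA into the precursor, had 4.86, 11.4, 8.08 and 6.05 RPKM, with both libraries labelled eIF5A-KO between the WT values (log2 fold change -0.09). Together with Rrs1, the genes Nop16, Gnl2, Rrp1, Ebna1bp2 and Brix1 overlapped, at 4.86 to 66.8 RPKM, and Rrp1 was the highest of them in every library.

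The same pathway beyond the 40 genes was read from a list of 89 further ribosome biogenesis genes. Of these, 87 were tested and 62 (71.3%) were above 0, with a median log2 fold change of 0.31. None passed an adjusted p of 0.05 in limma (lowest 0.672), and 2 (2.30%) were higher at an unadjusted p under 0.05 while 0 were lower, where all tested genes gave 2.86% and 4.46%. These were Ngdn, a small subunit factor, with 12.3 and 8.59 RPKM in WT and 20.8 and 30.1 RPKM in the libraries labelled eIF5A-KO (log2 fold change 1.20, SE 0.42, adjusted p = 0.672), and Utp14a, also of the small subunit, with 7.63, 3.60, 10.1 and 20.4 RPKM (log2 fold change 1.29, SE 0.52, adjusted p = 0.672). Both were lowest in WT library 2. In this list 31 genes were higher without overlap (35.6%, against 20.1% of all tested genes) and 7 lower (8.05%, against 20.3%), and WT library 1 was the lowest for 49.4% (against 28.0%). Without WT library 1 the median of the 87 tested genes was 0.06, and without WT library 2 it was 0.50. With all 4 libraries the median was 0.39 for the 35 tested 40S factors and 0.29 for the 39 tested 60S factors. The cytosolic ribosomal proteins, which these factors build into the subunits, had a median of -0.04 over 82 tested genes, with 38 above 0.

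Features that the choice of genes did not use were set beside the fold changes as descriptions. The 7 genes with the E-box had a median log2 fold change of 0.32 and the 27 with a window but no E-box 0.30. The 9 genes with a proline run had a median of 0.27 and the 31 without one 0.32. The 8 genes that share over 30% of their coding 30-base stretches with other genes had a median of 0.31, and the 19 that share none 0.30. The differences between these medians were not tested. The 7 genes that carry small nucleolar RNAs in their introns (Nop56, Nop58, Ncl, Gnl3, Wdr43, Tsr1 and Dkc1) had a median of 0.58 with 7 above 0, and the other 33 had 0.30, a difference that was not tested either. Of the small nucleolar RNAs themselves, Snord82 within Ncl was read 60 and 19 times in the WT libraries and 6 and 32 times in those labelled eIF5A-KO, and Snord91a within Tsr1 had 55, 4, 27 and 9 reads. Both had their highest count in WT library 1, where Ncl and Tsr1 were lowest.

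Base composition moved with the fold changes. The GC content of the coding sequence was 51.2% in the median of the 40 genes and 51.9% in that of protein-coding genes. Spearman's rho between GC content and log2 fold change was -0.28 across the 40 genes and -0.36 across 9866 protein-coding genes, which share the 4 libraries and are not independent replicates. The 20 genes under the median GC content had a median log2 fold change of 0.53 and the 20 over it 0.27. With the GC trend removed from the values, the median of the 40 was 0.32, with 32 above 0 against 52.4% of the 9866 genes in that fit. Single genes shifted more under this removal. The log2 fold change fell to 0.37 for Npm1, 0.54 for Ncl, 0.51 for Nop58, 0.20 for Gnl3 and 0.58 for Wdr75. It also fell for Utp20 (0.28), Heatr1 and Tsr1 (0.05 each) and Nop10 (0.19). It was higher than before the removal for Rrs1 (0.32), Bop1 (0.21), Bysl (1.05), Fbl (0.26), Nob1 (0.42), Nolc1 (0.32) and Nhp2 (-0.46). Dkc1 (1.41), Mrto4 (1.71) and Nop2 (1.16) stayed at an unadjusted p under 0.05 in limma. The other biogenesis genes had a median of 0.19 in that fit, and 0.18 with the same RPKM sum over protein-coding genes.

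**Figure D4:**
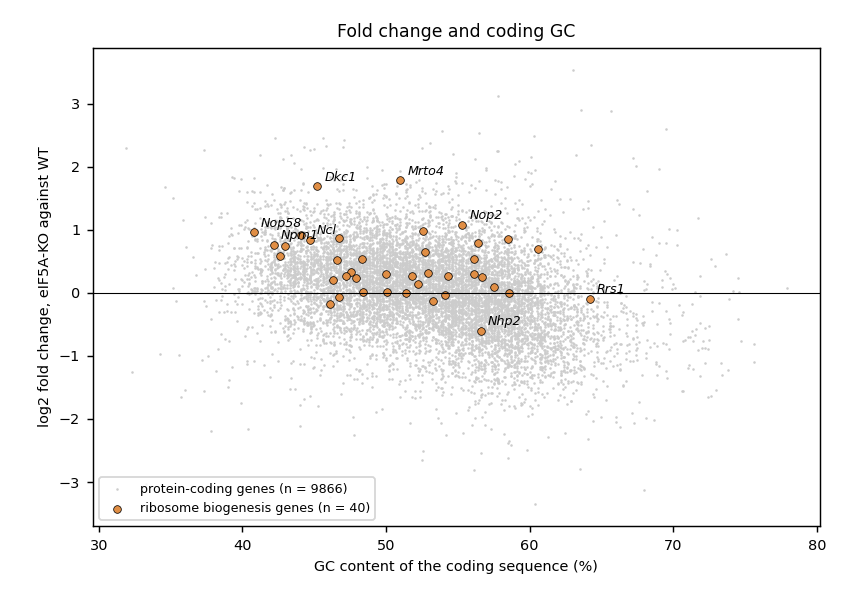
The log2 fold change (eIF5A-KO against WT, log2(RPKM + 1) scale) against the GC content of the coding sequence, for 9866 protein-coding genes (grey) and the 40 ribosome biogenesis genes (orange). The orange points slope downward with the grey ones (Spearman's rho -0.28 and -0.36), and at a given GC content most of them lie in the upper part of the cloud.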

How the data were processed

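Ribosome-protected RNA was sequenced from 2 WT and 2 eIF5A-KO libraries, grouped by the sample titles, which name the assay Polysome-Seq although the extraction text describes ribosome-protected fragments. The authors deposited RPKM values per gene and library, and their methods name the removal of rRNA and tRNA reads, mapping with TopHat2 and counting with HTSeq (mm10). The strand setting is not given in the sources used here, so overlapping and antisense genes could not be separated. RPKM times gene length gave whole reads for 100% of values (tolerance 0.01). Identifiers were matched to GENCODE M21 (99.7% found).

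Differences were tested with limma 3.58.1 in R 4.3.3 (lmFit, eBayes with trend=TRUE, two-sided) of log2(RPKM + 1) where the mean over the libraries reached 1 RPKM, with Benjamini-Hochberg adjustment over all tested genes, and were tested on simulated data. The genes and lists were chosen with earlier results of these data known. Values in each library are given for genes named by role, at an unadjusted p under 0.05, at either end of the fold changes or with the largest difference within a group. Nolc1, Wdr75, Emg1 and Nip7 were added after their values were seen, as were the context genes named. RNA abundance was not used, so translation efficiency was not computed. Alternatives were other pseudocounts, minimums, scalings and models, a replicate block, GC removal and each library left out.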

Additional observations from a re-analysis of the deposited data

How the results depend on the processing

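The 40 genes kept a median log2 fold change above 0, and 0 of them passed an adjusted p of 0.05 in limma, under each of the 16 alternatives. At the same RPKM sum, the 40 genes had a median of 1.33, 16 at an unadjusted p under 0.05 and 39 without overlap, the other biogenesis genes had 1.17 and 25, and all tested genes had a median of 0.84, 1647 higher and 96 lower at an unadjusted p, and 3 higher and 5 lower at an adjusted p. With limma-voom on the recovered reads, 6 of the 40 and 4 of the other biogenesis genes were higher at an unadjusted p, and 0 of all genes were higher and 39 lower at an adjusted p. The other biogenesis genes higher at an unadjusted p numbered 1 with a pseudocount of 0.1 and with trend=FALSE, 0 at the same RPKM sum over protein-coding genes, and 4 among protein-coding genes only and with at least 20 reads, and 1 was lower with the replicate block and with the coding GC trend removed. At an adjusted p, all genes gave 0 higher and 0 lower with a pseudocount of 0.1, with every gene above 0, at a minimum of 5 RPKM, among protein-coding genes only, with trend=FALSE, with the replicate block, with at least 20 reads and with the GC trend removed. At an unadjusted p they gave 178 higher and 327 lower at a minimum of 5 RPKM, and 308 lower with the GC trend removed. The median of all genes was 0.02 with every gene above 0 and with limma-voom, 0.07 at a minimum of 5 RPKM, -0.12 at the same RPKM sum over protein-coding genes, 0.06 with quantile normalization, 0.05 among protein-coding genes, and 0.03 with at least 20 reads and with the GC trend removed. The replicate block left the count of the 40 at 3 higher and 0 lower. Same-numbered libraries shared deviations with a correlation of 0.0575, which, with 2 libraries a group, cannot show whether they were paired.

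Leaving out each library in turn gave 0 to 10 of the 40 genes higher at an unadjusted p, a median relative to protein-coding genes of 0.06 to 0.65, 13 to 35 without overlap and higher (31.7% to 35.9% of all tested genes), and 1 to 11 without overlap and lower (30.4% to 39.4%). Without WT library 1 these were 13 and 11 of the 40, against 34.9% and 36.1% of all tested genes. For the other biogenesis genes it gave 0 to 10 higher, 0 to 1 lower and a median of 0.06 to 0.50, and for all genes 0 at an adjusted p in either direction, with 205 to 809 higher and 225 to 791 lower at an unadjusted p. Over these omissions the log2 fold change took both signs for 20 of the 40 genes. Ranges that crossed 0 among Eif5a and the 27 of the 40 followed singly were -0.12 to 0.76 for Eif5a, -0.56 to 0.56 for Bop1, -0.07 to 0.25 for Fbl, -0.06 to 0.58 for Heatr1, -1.23 to 0.03 for Nhp2, -0.62 to 1.22 for Nob1, -0.34 to 0.94 for Nop10, -0.19 to 0.21 for Nop56, -0.08 to 0.72 for Pes1, -0.22 to 0.23 for Polr1b, -0.63 to 0.45 for Rrs1, -0.70 to 1.18 for Tsr1 and -0.07 to 1.11 for Utp20. The other 8 were Utp4, Utp15, Wdr43, Nop14, Rrp12, Ltv1, Nop16 and Ebna1bp2. Other changes of sign were found at the same RPKM sum (Bop1 1.01, Nhp2 0.46, Rrs1 0.87, Ubtf 0.86), at the same sum over protein-coding genes (Fbl -0.03, Nop56 -0.13, Polr1b -0.12), with the GC trend removed (Bop1 0.21, Nop56 -0.10, Polr1b -0.05, Rrs1 0.32), with quantile normalization (Bop1 0.04, Nop56 -0.00), and for Bop1 with a pseudocount of 0.1 (0.01) and with limma-voom (0.02). None of these genes passed an adjusted p of 0.05 in limma there. With each library left out, a group of 1 library is assumed to vary like the other group. Mrto4 and Dkc1 rested on 1 to 35 reads a library. Over the same omissions, Emg1 ran from 0.33 to 0.96, Nolc1 from 0.11 to 0.43, Polr1a from 0.07 to 0.46 and Utp14a from 0.82 to 1.76. The cause of these shifts was not tested.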
